A study of Homo sapiens with 2 samples.

Results

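The genes described here encode the enzymes and regulators of cholesterol and fatty acid metabolism. They were chosen by name and not by a rule on their levels, but with earlier results of these data known. The list holds 53 genes of sterol synthesis, its control by SREBP, fatty acid synthesis, desaturation, elongation and activation, beta-oxidation and glycerolipid synthesis. Of the 53, 52 had a value under their current symbol among the 12353 genes of the table. No identifier was paired with the symbol ACACA, which is not analysed here. As 151 genes of the table had no current symbol, its level is unknown and not shown to be absent. All values come from BJ cells, an established line of human skin fibroblasts, grown in medium with 10% heat-inactivated fetal calf serum and given no treatment. The assay was GRO-seq (global run-on sequencing), in which nuclei extend already engaged transcripts for 5 min with a brominated nucleotide and the labelled RNA is captured and sequenced, so that a value reports transcription and not the amount of mature mRNA. The samples were 2 biological replicates of 1 group, called library a and library b after the deposited columns, because those letters match no replicate number in the labels. There is no second condition, so no p-value was computed and the results are levels, their spread over the libraries (mean ± SD, n = 2) and their order.

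Cholesterol is built from acetyl-CoA through mevalonate, farnesyl diphosphate, squalene and lanosterol, and mevalonate intermediates also supply isoprenoids for protein prenylation and ubiquinone. When the endoplasmic reticulum runs low in sterol, SCAP carries the membrane-bound SREBP precursors to the Golgi, where proteolysis frees a transcription factor that acts on genes of sterol and fatty acid synthesis. INSIG proteins hold SCAP back when sterol is plentiful. Cultured fibroblasts can take sterol from serum lipoproteins as well as make it, and they oxidise fatty acids in mitochondria after carnitine-dependent import.

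Values are FPKM, fragments per kilobase of gene scaled to library size, as the authors deposited them. Which length was used is not stated in the sources used, so an order of genes by FPKM also depends on that choice. Across the table the median of the mean FPKM was 11.7 and its quartiles were 6.30 and 22.2. The depth in reads is unknown, so no counting error is given. Where a gene is followed by a pair of values, the first is library a and the second library b. All 10 fibroblast markers listed had a value, with summed FPKM of 2091 in library a and 1996 in library b, led by COL1A1 and VIM. Of these, 9 were above the upper quartile of the table, and DCN, at 6.99 and 7.69, was below its median. Of the other markers listed, 1 of 6 adipocyte genes had a value (PLIN1, 2.89 and 2.60), none of 6 hepatocyte genes, 1 of 4 genes of steroid-producing cells (STAR, 19.7 and 18.5), 1 of 4 keratinocyte genes (CDH1, 1.49 ± 0.0141) and 2 of 4 leukocyte genes (CD68, at 112 and 116, close to the highest lipid gene, and CD74, at 13.6 and 10.1). The part of other cell types in the levels below was not tested.

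As a set the lipid genes were transcribed at moderate levels. Their median was 14.3, against 14.6 in library a alone and 13.8 in library b alone, and 1.22 times that of all genes. Of the 52 genes, 30 lay above the median of the table, where 50.0% of all genes lie, and 16 above its upper quartile, where 25.0% lie. Another 3 of the 52, or 5.77%, were among the lowest 10.0% of the table. The range was wide, from 1.88 for ACSL1 to 116 for FDPS, a 61.9-fold span. The spread between libraries was small beside it, with a median SD of 4.62% of the mean, and the libraries ranked the 52 genes alike (Spearman rho 0.990, a description across genes).

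**Figure D1:**
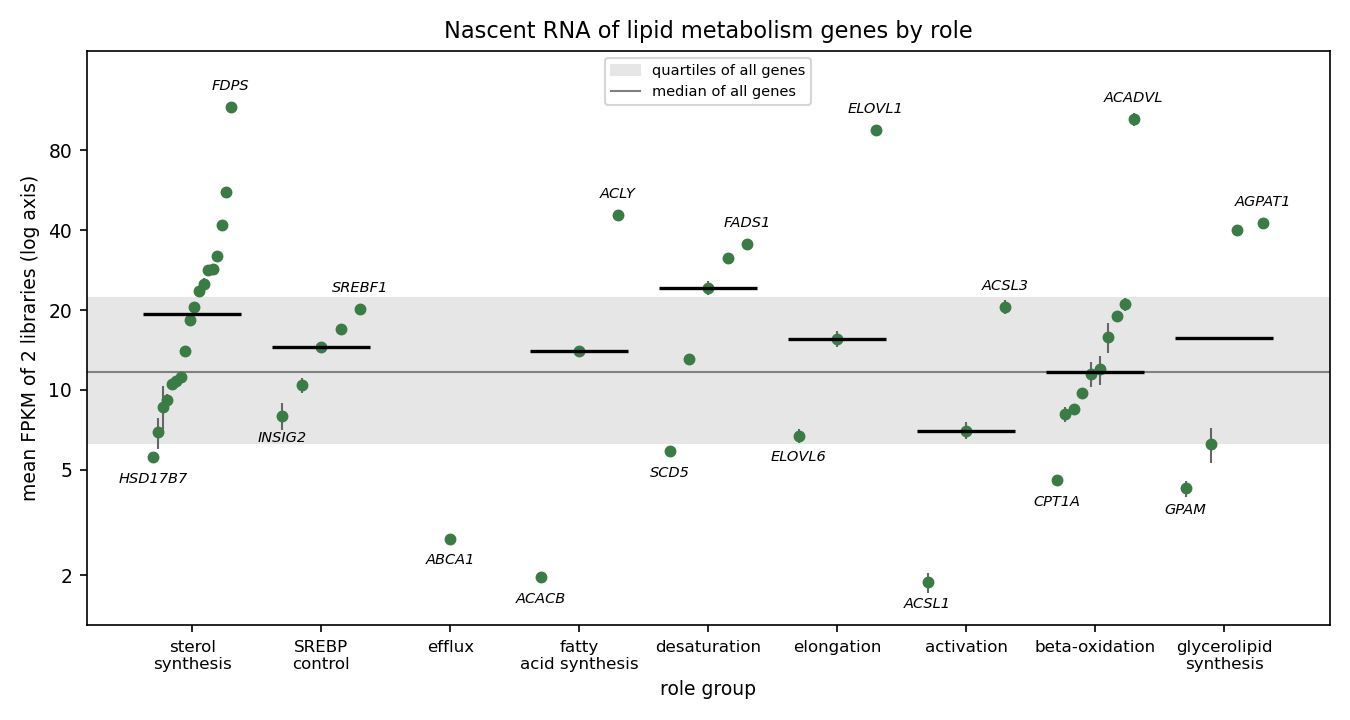
Mean FPKM over the 2 libraries (log axis) of the 52 lipid metabolism genes by role, with each vertical line joining the libraries and each black bar the group median on the log scale (groups of 3 or more). The grey band spans the quartiles of all genes. FDPS, ACADVL and ELOVL1 are the highest of the genes above it, and ACSL1, ACACB and ABCA1 are the lowest of those below it.

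Sterol synthesis was the largest role group, and all 18 of its genes had a value. Their median was 19.4 ± 0.211, or 1.66 times that of all genes, with 11 of 18 above the median of the table, 8 above the upper quartile and none in the lowest 10.0% of the table. Levels did not run evenly along the pathway. The 7 genes that lead to farnesyl diphosphate had a median of 20.5, the 3 from farnesyl diphosphate to lanosterol one of 28.4 and the 8 after lanosterol one of 12.3.

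The first steps condense acetyl-CoA units. ACAT2, the cytosolic thiolase, stood at 18.1 and 18.5, and HMGCS1, which makes HMG-CoA, at 20.4 and 20.6. HMGCS1 exceeded ACAT2 by only 1.12-fold (log2 ratio 0.16 ± 0.0154), in both libraries. An SD from 2 values is itself very uncertain, so a ratio this small is given as a value only. The span of ACAT2 overlaps TCP1, a chaperonin subunit gene with the higher level, at 25.4 and 28.1. The 3 phosphorylation and decarboxylation steps that turn mevalonate into isopentenyl diphosphate differed from each other. MVK, mevalonate kinase, was at 8.68 and 9.63, PMVK, phosphomevalonate kinase, at 24.3 and 22.9, and MVD, the decarboxylase, at 10.4 and 6.81. PMVK was thus the highest of these in each library, while MVK and MVD changed order between libraries and are not separated by these data.

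The isoprenoid steps carried the highest levels of the pathway. IDI1, which isomerises isopentenyl diphosphate, was at 58.4 and 53.5, and FDPS, the farnesyl diphosphate synthase at the branch to prenylation and squalene, at 112 and 121. FDPS stood at 9.94 times the median gene and at rank 240 of 12353, and every other sterol gene lay below it in both libraries. The annotated span of IDI1 overlaps that of WDR37, on the other strand, which was at 17.1 and 18.5. Whether counting used strand is not stated in the sources used, so reads of overlapping genes may not have been told apart.

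FDFT1, squalene synthase, was at 29.0 and 28.2, and SQLE, the squalene epoxidase that is an oxygen-dependent control point, at 27.6 and 29.2. They changed order between libraries. LSS, which closes the ring to lanosterol, was lower, at 10.9 and 11.6. Of the later enzymes TM7SF2, a sterol C14 reductase, was highest (42.8 and 41.0), followed by EBP, the sterol isomerase (32.2 and 31.9), and MSMO1, the C4 methyl oxidase (23.6 and 26.5). CYP51A1, the lanosterol demethylase, stood at 14.2 and 13.9, SC5D, the C5 desaturase, at 11.1 and 10.6, and DHCR7, whose product in the last step of 1 branch is cholesterol, at 10.8 and 10.3. By mean level, the lowest genes of the pathway also act on the C4 position, although MVD (6.81) lay below NSDHL in library b. NSDHL, a sterol dehydrogenase that starts 306 bases from CETN2 (4.78 and 4.91), was at 5.99 and 7.85, and HSD17B7, the 3-keto reductase, at 5.62 and 5.55, a level 20.8-fold below FDPS. MSMO1, NSDHL and HSD17B7 act in the same demethylation, and their levels ranged from a mean of 25.1 down to one of 5.59.

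**Figure D2:**
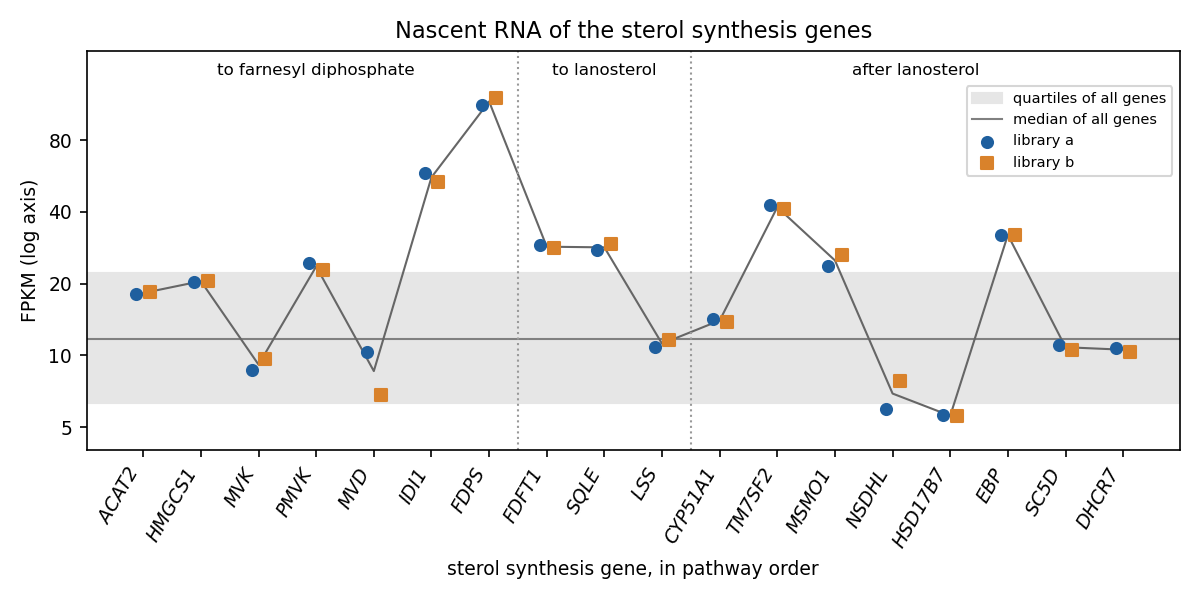
FPKM (log axis) of the 18 sterol synthesis genes in pathway order, with circles for library a and squares for library b. The line joins the means, and it does not run evenly: MVK (9.16) and MVD (8.60) lie below their neighbours, FDPS is the peak at 116, LSS is at 11.2 and HSD17B7 is lowest, with MVD showing the widest gap between libraries.

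The promoters of these genes were searched for motifs of the factors that SREBP is known to act with. RefSeq windows on GRCh38.p14, of 250 bases before to 50 after an annotated start, were found for 46 of the 52 genes. The 6 without a window were ACAT2, FDFT1, SQLE, FASN, ACAA1 and DGAT1, so their promoters were not searched. Each motif was sought on both strands. The CCAAT box, known as the site of NF-Y, was present for 13 of the 15 sterol synthesis genes with a window, the exceptions being PMVK and CYP51A1. It was present for 43.4% of the 9936 genes that had both a value and a window, and in 34.6% of all 35116 windows. Genes with several windows have more chances to hold a motif. Among genes with 1 window it was present for 9 of 11 sterol genes, against 38.0% of all. The GC box GGGCGG, known as the site of Sp1, was present for 14 of the 15, against 76.5%. The sterol element core CACNCCAC was found for 2 of the 15, IDI1 and SC5D, against 7.94%, and its longer form TCACNCCAC for none, against 1.47%. Both IDI1 and SC5D have several windows. With 1 window the core was found for 0 of 11 sterol genes, against 5.55% of all. A match of letters is a description and not a bound site, and SREBP also binds other variants that were not searched.

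The sequences that follow are the 250 bases before the start of FDPS, the highest gene of the pathway, and of MVK, among the lower ones, with CCAAT boxes on either strand in capitals (ATTGG is the box on the other strand).
FDPS, chr1:155308616-155308865, plus strand: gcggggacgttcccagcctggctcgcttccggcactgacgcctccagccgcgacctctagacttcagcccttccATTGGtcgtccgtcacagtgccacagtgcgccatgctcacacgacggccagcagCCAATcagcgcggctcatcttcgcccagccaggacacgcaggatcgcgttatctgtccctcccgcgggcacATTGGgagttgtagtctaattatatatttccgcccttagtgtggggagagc
MVK, chr12:109573544-109573793, plus strand: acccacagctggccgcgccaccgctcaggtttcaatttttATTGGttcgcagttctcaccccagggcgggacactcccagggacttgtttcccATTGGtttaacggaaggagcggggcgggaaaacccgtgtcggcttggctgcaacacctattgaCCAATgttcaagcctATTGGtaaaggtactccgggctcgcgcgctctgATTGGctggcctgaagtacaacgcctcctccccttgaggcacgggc
FDPS has 3 boxes, beginning 176, 122 and 51 bases before the start. MVK has 5, beginning 210, 157, 94, 79 and 46 bases before it. The region upstream of MVK is shared with MMAB, a gene of cobalamin metabolism that starts 290 bases away on the other strand and stood at 13.0 in both libraries, 1.42 times the mean of MVK. Over the 13 sterol genes with a CCAAT box, levels ran from 5.59 to 116 with a median of 11.2. Over all 46 genes with a window, the median was 15.5 for the 27 with a CCAAT box and 11.5 for the 19 without, with overlapping ranges.

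The regulators of the pathway had levels near that of the typical gene. All 5 lay between SREBF1, at 19.8 and 20.6, and INSIG2, at 8.91 and 7.04, with a median of 14.5 ± 0.191. None was above the upper quartile of the table. SREBF1, whose products favour fatty acid genes, exceeded SREBF2, whose product favours sterol genes and stood at 11.1 and 9.77, by 1.93-fold (log2 ratio 0.95 ± 0.168). INSIG1, itself a known SREBP target, was at 17.5 and 16.4 and exceeded INSIG2 by 2.12-fold (log2 ratio 1.08 ± 0.171). SCAP, the escort of both precursors, was at 14.7 and 14.4. In each library the order was SREBF1, INSIG1, SCAP, SREBF2 and INSIG2. The span of SREBF1 overlaps RAI1, a gene on the other strand at 6.51 and 6.11.

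Promoters of INSIG1 and SREBF2 are shown because they hold both the sterol element core and a CCAAT box. In INSIG1 the capitals mark the core on the other strand (208 to 201 bases before the start), a CCAAT box (170 to 166) and the E-box CACGTG (55 to 50), a second kind of site that SREBP can bind. In SREBF2 they mark the longer sterol element (133 to 125 bases before the start), on the strand of the gene, and a CCAAT box (106 to 102).
INSIG1, chr7:155297628-155297877, plus strand: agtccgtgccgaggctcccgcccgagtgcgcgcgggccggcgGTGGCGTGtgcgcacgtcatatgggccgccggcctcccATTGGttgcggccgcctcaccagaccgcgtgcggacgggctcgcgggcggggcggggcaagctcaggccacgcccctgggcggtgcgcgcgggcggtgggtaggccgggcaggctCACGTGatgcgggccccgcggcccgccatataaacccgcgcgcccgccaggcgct
SREBF2, chr22:41832855-41833104, plus strand: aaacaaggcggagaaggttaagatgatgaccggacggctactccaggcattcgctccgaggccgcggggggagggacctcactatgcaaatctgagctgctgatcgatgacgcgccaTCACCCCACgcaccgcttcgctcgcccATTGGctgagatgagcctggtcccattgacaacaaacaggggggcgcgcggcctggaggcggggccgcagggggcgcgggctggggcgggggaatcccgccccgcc
Among the 46 genes with a window, 11 held the core and 6 the E-box, or 23.9% and 13.0%, against 7.94% and 12.6% of genes with a value. ACSL1, with the lowest level of the set, was the other gene with the longer sterol element. The direct repeat bound by PPAR and RXR was found in none of their windows, against 0.0228% of all windows.

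Both SREBF genes also host a microRNA. The miR-33 family is known to repress cholesterol efflux and fatty acid oxidation genes, ABCA1 and CPT1A among them. The table gives no value for the microRNAs themselves, and the levels above are those of the whole host gene. Mature sequences from RefSeq on GRCh38.p14 are shown with the seed, bases 2 to 8, in capitals.
hsa-miR-33b-5p, in SREBF1, chr17:17813897-17813916, minus strand: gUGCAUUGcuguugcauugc
hsa-miR-33a-5p, in SREBF2, chr22:41900949-41900969, plus strand: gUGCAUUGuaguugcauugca
Their seeds are identical, UGCAUUG, although the hosts lie on different chromosomes. ABCA1, the pump that loads cholesterol onto apolipoprotein A-I, was at 2.79 and 2.71. That is 0.235 times the median gene, in the lowest 10.0% of the table, and below both hosts in each library. Nascent RNA does not measure repression by a microRNA, which acts on mature transcripts.

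Fatty acid synthesis genes differed widely from each other. ACLY, which makes cytosolic acetyl-CoA from citrate, was at 47.8 and 43.8, above 91.9% of genes. FASN, the multifunctional synthase, was at 14.0 ± 0.651, close to the typical gene. ACACB, the acetyl-CoA carboxylase at the mitochondrial surface whose malonyl-CoA inhibits carnitine-dependent import, was at 2.06 and 1.87, in the lowest 10.0% of the table. The order was the same in both libraries, with a 23.3-fold span. A summary of a group of 3 such unlike genes, without ACACA, says little, and its median is the level of FASN.

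Desaturases were among the higher groups, with a median of 24.3 ± 2.16, and 4 of 5 were above the median of the table. FADS1, the delta-5 desaturase, was highest at 35.6 and 35.2, followed by SCD, which makes oleate, at 31.1 and 31.5. FADS2, the delta-6 desaturase, was at 25.8 and 22.8, FADS3 at 13.0 and 13.3 and SCD5 at 5.68 and 6.06. The groups of values did not overlap, so all 5 had the same order in each library. SCD exceeded its relative SCD5 by 5.26-fold (log2 ratio 2.40 ± 0.0533). The 3 FADS genes are neighbours in 1 cluster. In it, FADS1 exceeded FADS2 by 1.46-fold (log2 ratio 0.54 ± 0.118) and FADS2 exceeded FADS3 by 1.84-fold (0.88 ± 0.157). The annotated spans of FADS1 and FADS2 overlap, on opposite strands.

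Elongases spanned 14.2-fold. ELOVL1, which extends saturated and monounsaturated very long chains, was at 98.0 and 92.8, the third highest of all 52 genes. ELOVL5, for polyunsaturated chains, stood at 16.6 and 14.5 and exceeded ELOVL6, which extends palmitate, at 7.13 and 6.32, by 2.29-fold (SD of the log2 ratio 0.0199). Of the acyl-CoA synthetases that activate fatty acids, ACSL3, found on the endoplasmic reticulum and lipid droplets, was at 21.7 and 19.3. It exceeded ACSL4, which prefers arachidonate, at 7.54 and 6.51, by 2.90-fold (log2 ratio 1.54 ± 0.0279). ACSL1, the main form of fat and liver cells, was at 2.04 and 1.72, the lowest level in the set.

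Beta-oxidation genes had a median of 11.6 ± 0.188, 0.998 times that of all genes, with 5 of 10 above the median of the table. ACADVL, the dehydrogenase for very long chains, was the 1 gene above the upper quartile, at 99.2 and 110. It is 8.95 times the median gene. DLG4, a gene on the other strand whose annotated starts come as near as 102 bases, and whose span overlaps, was at 11.6 and 11.7. The dehydrogenases for shorter chains were lower, with ACADM at 17.9 and 13.8 and ACADS at 8.64 and 7.59.

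The carnitine shuttle was uneven. CPT1A, which forms acylcarnitine at the outer mitochondrial membrane and is the known control point, was at 4.73 and 4.42, the lowest of the group. CPT2, which reverses the reaction inside, was at 19.8 and 22.3, so CPT1A stood 4.51-fold below it (log2 ratio -2.17 ± 0.190). CPT2 overlaps CZIB, on the other strand at 42.0 and 37.8. HADHA and HADHB, the subunits of the trifunctional protein, were at 12.7 and 10.3 and at 18.9 and 19.2. The subunits occur in equal numbers in the complex, and their genes start 307 bases apart in opposite directions. HADHA had the lower FPKM in each library, by 1.66-fold (log2 ratio -0.73 ± 0.230). The span of HADHA also overlaps GAREM2, on the other strand, at 16.4 and 14.8. ECHS1, the hydratase for short chains, was at 8.76 and 8.22. Of the thiolases, mitochondrial ACAA2 was at 9.76 ± 0.410 and peroxisomal ACAA1 at 12.0 ± 2.16, a log2 ratio of -0.28 ± 0.200 that was within 2 SD. It was the 1 pair of the 11 measured for which this held. The span of ACAA1 overlaps DLEC1, at 3.58 and 4.84.

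None of the 9 beta-oxidation genes with a promoter window had a CCAAT box, against 43.4% of genes with a value, and none of the 8 with 1 window had one, against 38.0%. In the sterol group the count was 13 of 15, in desaturation 4 of 5 and in fatty acid synthesis 2 of 2. Elongation, activation and glycerolipid synthesis each had 2 of 3, SREBP control 2 of 5 and efflux 0 of 1. For the sterol element core, beta-oxidation had a larger share than sterol synthesis, with 3 of 9 genes (ACAA2, HADHA and HADHB) beside 2 of 15 (IDI1 and SC5D). With 1 window these counts were 3 of 8 and 0 of 11. No difference between groups was tested, since the genes were chosen with results of these data known. The shared upstream region of HADHA and HADHB and that of CPT1A are shown as promoters with no CCAAT box. The capitals mark a sterol element core on the other strand (123 to 116 bases before the start of HADHB), which lies in the windows of both genes and was counted for each.
HADHB, chr2:26244689-26244938, plus strand: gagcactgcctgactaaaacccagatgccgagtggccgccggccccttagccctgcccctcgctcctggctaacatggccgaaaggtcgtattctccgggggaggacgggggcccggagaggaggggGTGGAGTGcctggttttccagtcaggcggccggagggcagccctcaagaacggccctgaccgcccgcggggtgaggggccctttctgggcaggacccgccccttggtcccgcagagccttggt
CPT1A, chr11:68844278-68844527, minus strand: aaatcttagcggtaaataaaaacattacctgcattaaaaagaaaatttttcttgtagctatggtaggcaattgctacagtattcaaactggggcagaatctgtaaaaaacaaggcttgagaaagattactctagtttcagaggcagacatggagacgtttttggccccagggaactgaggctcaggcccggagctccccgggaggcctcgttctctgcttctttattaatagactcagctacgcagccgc
The CPT1A window holds none of the motifs searched.

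Glycerolipid synthesis genes fell into a higher and a lower pair. AGPAT1, which adds the second acyl chain, was at 43.7 and 41.3, and DGAT1, which completes triglyceride, at 40.5 and 39.4. GPAM, the mitochondrial enzyme that adds the first chain, was at 4.55 and 3.96, and LPIN1, the phosphatidate phosphatase, at 7.17 and 5.32. The pairs did not overlap in either library. AGPAT1 starts 297 bases from RNF5, on the other strand, which stood at 7.11 and 11.2, and the span of DGAT1 overlaps HSF1, at 14.4 and 13.7.

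**Figure D3:**
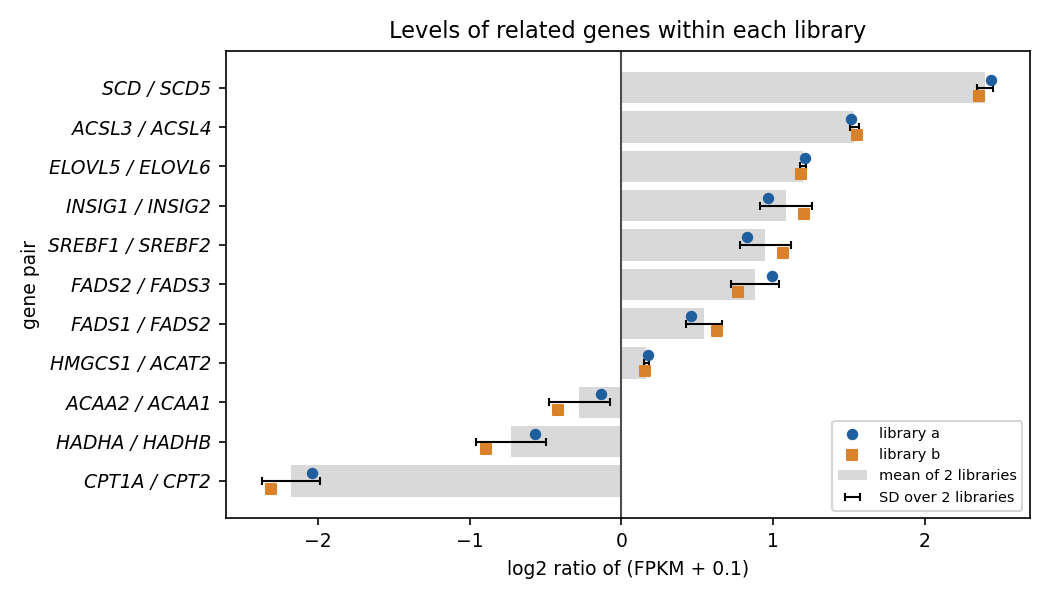
The log2 ratio of (FPKM + 0.1) for 11 pairs of related genes, with bars for the mean, points for each library and error bars for the SD over the 2 libraries. All pairs have the same sign in both libraries, from CPT1A below CPT2 (-2.17) to SCD above SCD5 (2.40).

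The groups were also set against each other. Sterol synthesis had a median 1.66-fold above beta-oxidation, with log2 differences of 0.73 (library a), 0.72 (library b) and 0.73 ± 0.00742 (both). This SD covers the 2 libraries only and not the spread among genes. Means of the sterol genes ran from 5.59 to 116 and those of the beta-oxidation genes from 4.58 to 105, so the groups overlapped widely. With list means the difference came to 0.43. The 3 fatty acid synthesis genes had a higher median than beta-oxidation (log2 difference 0.26 ± 0.0897), but with list means the direction turned, to -0.35. That order therefore rests on the choice of summary.

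The libraries differed little for these genes. The difference is the log2 of (FPKM + 0.1) in library b over library a, less the median of all genes (-0.02). Of the 52 genes, 1 differed by more than 1.5-fold, against 2.16% of all genes. It was MVD, at 10.4 and 6.81, a centred difference of -0.59, or 1.502-fold and so only just past the threshold. It was no longer past that fold with a pseudocount of 1 or after quantile normalisation. LPIN1 (-0.41) and ACADM (-0.36) were also higher in library a, and NSDHL (0.40) and ACAA1 (0.38) higher in library b. The difference was above 0 for 19 of 52 genes, against 50.0% of all genes, with a median of -0.04. Regardless of sign, the median factor between libraries was 1.07 for these genes and 1.10 for all. All 4 glycerolipid, all 3 elongation, all 3 activation and all 3 fatty acid synthesis genes lay below 0, whereas sterol synthesis (9 of 18) and beta-oxidation (5 of 10) were even and desaturation had 4 of 5 above 0. With 1 library on each side these are values and not tests.

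**Figure D4:**
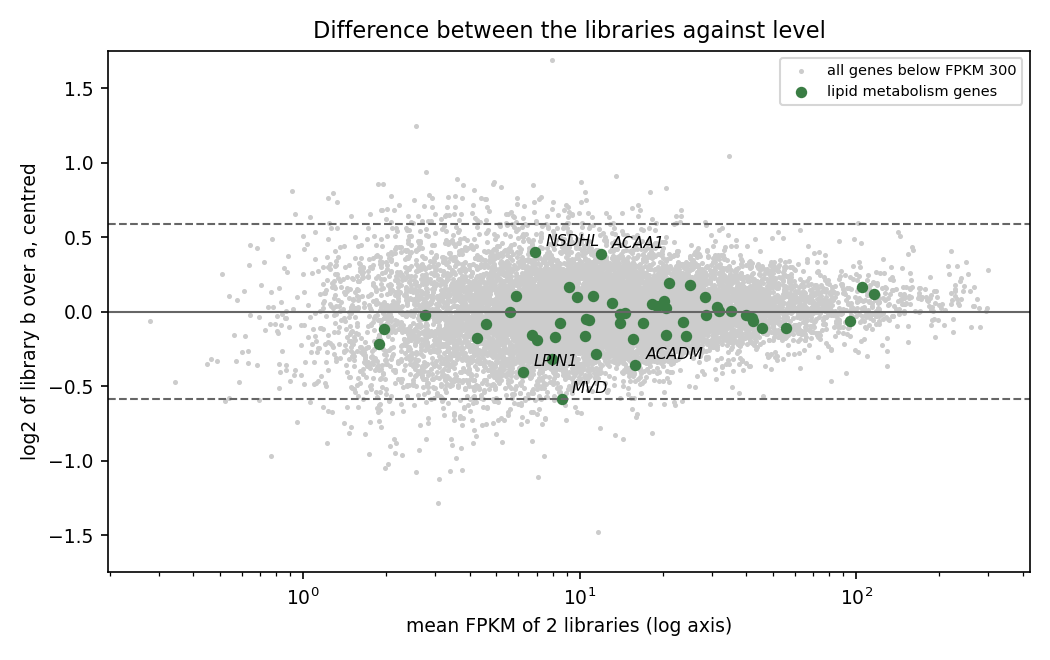
Centred log2 difference between the libraries against mean FPKM (log axis), with grey points for all genes on the axis range and green points for the 52 lipid metabolism genes. Dashed lines mark a 1.5-fold difference, and MVD at -0.59 is the 1 green point that passes them.

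Other genes of lipid metabolism, from lists that extend each pathway, had list medians between 9.60 and 13.8. All 16 isoprenoid and late sterol genes had a value, with a median of 13.8 and 12 above the median of the table. Of 25 genes of sterol uptake, transport and feedback 23 had one, with a median of 12.0 and 13 above. In the list of fatty acid supply and elongation 14 of 22 had a value (median 10.6, with 6 above), and it was led by SLC25A1, the citrate carrier that feeds ACLY, at 61.8 and 57.5. The wider oxidation list had values for 22 of 25 (median 9.60, with 9 above) and that of glycerolipids and lipid droplets for 17 of 20 (median 12.0, with 9 above), with the droplet coat gene PLIN3 highest in the latter. The proteases that free SREBP in the Golgi were both below the median gene, with MBTPS1 at 9.24 and 8.55 and MBTPS2 at 2.94 and 3.47.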

How the data were processed

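The authors deposited 1 table of FPKM values for 12353 Ensembl gene identifiers in 2 columns, 1 per library. Per the submitters' processing notes, Bowtie2, HTSeq and hg19 were used (no versions). Gene length, read total, any filter on low values and the use of strand are not stated there. The lowest values were 0.29 and 0.27, so the table holds genes above some minimum.

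Identifiers were paired with symbols through an Ensembl name table (12202 matched), and classes, neighbours and promoter windows were taken from RefSeq on GRCh38.p14. No coordinate of the values' own build was used. Levels were summarised on log2(FPKM + 0.1) and group medians returned to FPKM. A pair ratio was read against 2 SD over the libraries. The 1.5-fold call, for genes shifted upward in library b, and the level of a gene were checked on simulated data. This check did not cover the group medians, pair ratios or motif counts. Python 3.11.15, numpy 2.4.6, pandas 2.3.3, scipy 1.17.1 and matplotlib 3.10.9 were used.

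The members and lists were chosen with earlier results of these data known. Named in full were the 3 highest and the lowest of each role group, the pairs and genes past 1.5-fold. Of 12 planned pairs 11 had both values. The rule also selects genes of the wider lists, and some of these are not reported here. Neighbours described are measured genes that overlap a member or start divergently within 1000 bases of it, and CHKB beside CPT1B. A planned comparison of proteins was not made. MBTPS1, MBTPS2, the shown promoters and the neighbours were named after their values were seen. Alternatives were each library alone, a pseudocount of 1, list means, a minimum mean FPKM of 1, other backgrounds, no centring and quantile normalisation.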

Additional observations from a re-analysis of the deposited data

How the results depend on the processing

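Of 95 alternatives over 25 results, 79 left the value within the spread between libraries (for counts, within 1.5 times), 15 moved it and 1 turned its direction. For values other than counts, each library alone was all but certain to stay within it, because the spread came from those 2 values. The minimum mean FPKM of 1 removed none of the lipid genes, the lowest being at 1.88. The 79 are therefore not a measure of robustness. With list means in place of medians, the level came to 14.9 for all members, 18.8 for sterol synthesis and 13.9 for beta-oxidation, and the log2 difference between the last 2 groups to 0.43, or 0.69 with a pseudocount of 1. The difference between fatty acid synthesis and beta-oxidation turned to -0.35 with list means. The count of genes past 1.5-fold between libraries went from 1 to 0 with a pseudocount of 1 and to 0 after quantile normalisation. The gene concerned, MVD, had a centred factor of 1.502 between libraries, only just past the threshold. The cause was not tested. None of the 33 alternatives for pair ratios turned a direction, but none of them could have. They were each library alone and a pseudocount of 1. Every pair had the same sign in both libraries, and a pseudocount cannot turn a sign that both libraries share. These 33 therefore say nothing about robustness. Read depth is unknown, and 2 libraries give an SD that is itself uncertain. No paired analysis was possible because the libraries form 1 group.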

Other observations

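The first step of the carnitine shuttle has other isoforms in the wider oxidation list, named here after their values were seen. CPT1B, the muscle form, was at 16.1 (library a) and 16.0 (library b), 3.45-fold above CPT1A (log2 ratio 1.79 ± 0.0576), and CPT1C, the form of neurons, at 8.36 and 9.53, 1.93-fold above it (0.95 ± 0.200). The choline kinase gene CHKB, a neighbour of CPT1B within 5000 bases, was higher than both, at 64.0 and 66.6, and whether its reads reach CPT1B was not tested. In peroxisomes ACOX3, an oxidase for branched chains, was at 59.1 and 65.5.

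Of the nuclear receptors named here that act on these pathways, NR1H2 was highest by mean, at percentile 73.4 of the table. PPARG was lowest, at percentile 5.89. NR1H2 and NR1H3, the LXR receptors that activate ABCA1, were at 23.7 and 18.6 and at 10.5 and 14.4, a log2 ratio of 0.77 ± 0.568 that is within 2 SD over the libraries. PPARD was at 10.7 and 10.0, PPARA at 6.96 and 7.63, and PPARG, the regulator of fat cells, at 1.86 and 3.16.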
